A study of Homo sapiens with 4 samples.

Results

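The proteasome genes of MDA-MB-231 cells were described in 4 RNA-seq libraries. Members were all protein-coding rows of the deposited count table whose symbol starts with PSM, a letter from A to G and a digit. This gave 49 of the 58735 genes in the table. By role they were 7 constitutive alpha-ring subunits, 7 constitutive beta-ring subunits, 3 inducible catalytic subunits of the immunoproteasome, 2 tissue-restricted core subunits, 6 ATPases and 11 non-ATPase subunits of the regulatory particle, 3 chaperones that assemble its base, 4 alternative activators with the inhibitor PSMF1, and 4 core assembly factors. The last gene, PSMC3IP, matched the symbol only: it is named for binding PSMC3 and encodes a homologous-recombination factor. It is described separately below, but all counts, medians and read shares over members include it.

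MDA-MB-231 is an established human triple-negative breast cancer line. All 4 groups carried the same TetOn-H2BeGFP construct and had the same handling, which was doxycycline at 5 μg/ml for 3 days, labelling with the Claret and Violet dyes, and a chase of 12 days. The Claret, eGFP and Violet groups were the 1% of cells that kept most of the named label, taken as slow-cycling cells (the labels' SCCs), and Bulk was sorted with no gate on fluorescence. Every group is 1 library. No difference below can therefore be checked against replicates, and no p-value is given. Library totals ranged from 15508179 to 16976909 reads. VIM, a mesenchymal marker of this line, had 12507 to 18488 reads, the oestrogen receptor gene ESR1 had 3 to 7, and the progesterone receptor gene PGR had 0. Of the other genes listed as absent or low in this line, the receptor gene ERBB2 was neither, with 1415 to 1542 reads. EPCAM had 28 to 61 reads and CDH1 had 0 to 3. The division marker MKI67 counted 6778 Bulk reads against 689 to 995 per slow-cycling library, and mitochondrial genes held 4.18% of reads in Bulk and 5.06% to 5.48% in the others. Libraries are named by their titles, which match the column names of the deposited tables. The treatment field names another sort for every library, with the library titled Bulk given as Claret and the library titled Violet given as un-gated.

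The proteasome degrades proteins that carry ubiquitin chains. Its barrel-shaped 20S core stacks rings of alpha subunits, which gate the entrance, around rings of beta subunits, of which PSMB5, PSMB6 and PSMB7 cut the substrate. The 19S regulatory particle caps the core: its ATPase ring (PSMC) unfolds and threads the substrate, and its PSMD subunits bind, position and strip the ubiquitin chain. Immune cytokines such as interferon gamma can induce PSMB8, PSMB9 and PSMB10, which take the places of PSMB5, PSMB6 and PSMB7. Transcription of core and regulatory-particle genes together is known to be raised by NFE2L1 (also called NRF1), which binds antioxidant response elements.

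Because core and regulatory-particle genes are known to be raised through such elements, upstream sequences of the members were searched. The search took the 250 bases before the RefSeq start (GRCh38.p14) and the core letters TGACNNNGC on both strands. A window was matched for 43 of the 49 members, in 53 windows. PSMA7, PSMB1, PSMB6, PSMB7, PSMD4 and PSMG3 had none. The letters were found in 13 members, in 24.5% of member windows against 10.9% of all 35114 windows. A match is a description of letters, not a bound site. Stretches of 60 bases that lie outside annotated exons are shown for 4 members, 5′ to 3′ on the gene's strand with the match in capitals, because PSMB3 and PSMD12 were lower in the slow-cycling libraries while PSMB9 and PSME1 were not. They lie at chr17:38752611-38752670 (plus strand, PSMB3), chr17:67366709-67366768 (minus strand, PSMD12), chr6:32854018-32854077 (plus strand, PSMB9) and chr14:24136082-24136141 (plus strand, PSME1).
PSMB3: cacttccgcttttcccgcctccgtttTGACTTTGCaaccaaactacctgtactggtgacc
PSMD12: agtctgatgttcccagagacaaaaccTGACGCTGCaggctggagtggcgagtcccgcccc
PSMB9: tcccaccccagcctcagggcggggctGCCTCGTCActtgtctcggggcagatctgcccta
PSME1: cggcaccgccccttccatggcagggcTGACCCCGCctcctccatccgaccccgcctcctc
The match begins 104 bases before the start in PSMB3, 165 in PSMD12, 148 in PSMB9, where it is on the other strand, and 86 in PSME1. For members with the letters the median log2 ratio to Bulk for Claret, eGFP and Violet was -0.57, -0.64 and -0.64 (13 genes), beside -0.595, -0.60 and -0.67 for 28 members whose windows lacked them. Other motifs were searched in the same windows. The CCAAT box was in 39.6% of member windows and 32.0% of all windows, and the gamma-activated site TTCNNNGAA in 13.2% and 6.57%. The interferon-stimulated response element core was in 9.43% and 3.02%. Its 5 members were PSMA4, PSMB4, PSMB10, PSME2 and PSMG4, and so did not include PSMB9. The AP-1 site was in 5.66% and 6.57%. The E2F site was in 1.89% and 0.55% in its first form, and in 3.77% and 1.39% in its second.

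The first question was how proteasome expression differed between slow-cycling and Bulk cells. Most members were lower in each slow-cycling library. Together they took 0.610% of all Bulk reads, against 0.411% for Claret, 0.394% for eGFP and 0.376% for Violet. From here on, read counts and FPKM values follow the order Bulk, Claret, eGFP, Violet, and ratios to Bulk the order Claret, eGFP, Violet. Of the 49, 47 passed a filter of a mean of at least 1 CPM, where CPM is a gene's count scaled to a common library size. The tissue-restricted PSMA8, a testis subunit, and PSMB11, of the thymus, were without a read (0 in every library), so that each may reach 0.193 CPM. Over the 47, the median log2 ratio of TMM-scaled CPM to Bulk was -0.57, -0.62 and -0.67, where the median over all 14585 genes kept was -0.01, -0.01 and 0.01. Values below 0 were found for 44, 44 and 45 members, against 50.4%, 50.7% and 49.3% of all genes.

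A gene was called when it differed by at least 1.5-fold. By this rule 23, 25 and 27 of the 47 members were called lower, where 17.4%, 18.6% and 17.2% of all genes were. PSMB9 was the single member called higher in each library, against 21.4%, 22.0% and 22.4% of all genes. At 2-fold, 6, 5 and 8 members were lower, with 6.72%, 7.64% and 6.92% of all genes, and no member was higher, with 11.3%, 12.0% and 11.7%. Among the 10112 genes with a mean of at least 10 CPM, 17.9%, 19.3% and 18.5% were at least 1.5-fold lower. At least 1.5-fold higher were 1503, 1582 and 1507 of them. The 3 comparisons use the same Bulk library, so they are not independent of each other, and in sorted bulk RNA fewer cells of a type and less RNA per cell cannot be told apart. Many members lay close to 1.5-fold: with a filter at 10 CPM and its own scaling, 14 of 43 were lower in Claret, with 15.2% of all genes. If the treatment field instead of the title named the groups, the Claret median would be 0.67, in the opposite direction. The library then called Claret would be that with 6778 MKI67 reads, against 689 to 995 in each of the others, and the deposited columns carry the names of the titles.

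**Figure D1:**
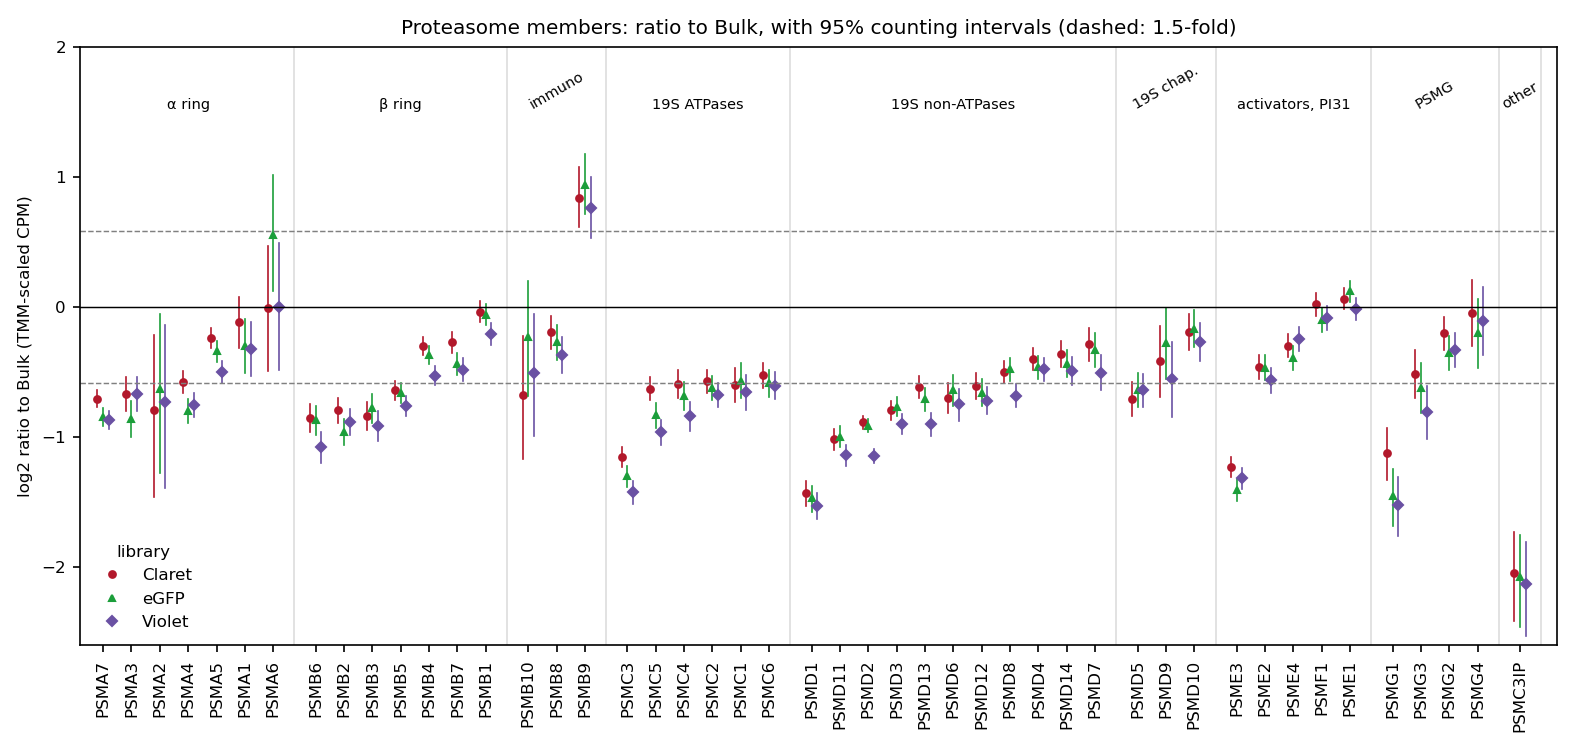
Log2 ratio to Bulk of TMM-scaled CPM for the 47 members kept (vertical axis), grouped by role and ordered by mean ratio within each role, for the Claret (red circles), eGFP (green triangles) and Violet (purple diamonds) libraries. Bars are 95% exact counting intervals, dashed lines mark 1.5-fold, and PSMB9 is the member above the upper line in all 3 libraries.

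Most of the alpha ring was lower, with PSMA1, PSMA5 and PSMA6 the least so. PSMA7 had the highest level of all members per gene length, with 4669, 3082, 2619 and 2557 reads and deposited FPKM values (reads scaled by gene length and library depth) of 172, 104, 93.7 and 91.0. Its log2 ratios to Bulk were -0.71 (95% counting interval -0.77 to -0.64), -0.85 (-0.92 to -0.78) and -0.87 (-0.94 to -0.80). Bulk was thus the highest library and the other 3 lay close together. PSMA3 had 1229, 833, 682 and 772 reads and ratios of -0.67, -0.86 and -0.67. PSMA4 fell from 2671 reads to 1932, 1546 and 1583, with -0.57, -0.80 and -0.75, and so passed 1.5-fold in eGFP and Violet. PSMA5 differed less, at -0.24, -0.34 and -0.50. Over the ring the median was -0.57, -0.63 and -0.67, and 3, 4 and 4 of the 7 subunits were called lower.

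Reads of 3 alpha-ring genes are uncertain because other annotated genes cover their exons. In GENCODE 29, whose gene starts and ends those of the count table match, 97.1% of the coding bases of PSMA2 lie inside exons of other genes, 88.6% of PSMA1 and 70.4% of PSMA6. PSMA2 had 61, 37, 39 and 36 reads and PSMA6 had 73, 78, 109 and 73, while the other alpha genes outside this trio had 682 to 4669. In FPKM, PSMA2 was at 0.736 and PSMA6 at 0.722 in Bulk, the lowest levels of the 47 members. PSMA1, at 429, 426, 351 and 343 reads, had 8.36 FPKM in Bulk. These 3 subunits are obligate parts of the ring, but message counts do not measure a subunit's share of it. The log2 ratio of PSMA6 in eGFP, 0.55, has a counting interval from 0.12 to 1.01. PSMA2 was called lower in all 3, at -0.79, -0.63 and -0.73, with intervals that reach -0.05 in eGFP.

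**Figure D2:**
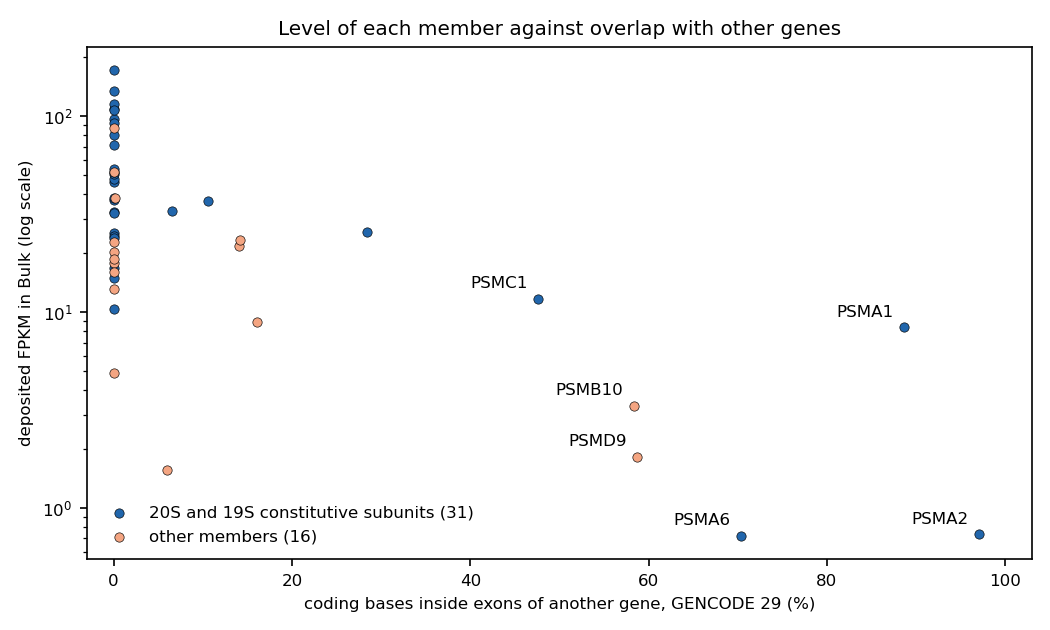
Deposited FPKM in Bulk (log axis) of the 47 members kept against the percentage of their coding bases that lie inside exons of another GENCODE 29 gene. Constitutive core and regulatory-particle subunits are blue and the other members orange, and PSMA2 and PSMA6, at 97.1% and 70.4% overlap, have the lowest levels.

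The same overlap touches 2 members outside the ring above 50%, PSMD9 (58.7%) and PSMB10 (58.3%), while 33 of the 47 have none. How the authors treated reads that fall in more than 1 gene is not given in the sources used here, and the part of this overlap in the levels was not tested. Restricting the list to the 36 members with under 10% overlap left 18, 22 and 23 called lower and medians of -0.58, -0.64 and -0.70.

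Of the beta ring, 4 of 7 genes were called lower in each library, and all 7 were below Bulk. PSMB6, which carries the caspase-like activity, had 1797, 1072, 991 and 850 reads. Its log2 ratios were -0.85 (-0.96 to -0.74), -0.87 (-0.98 to -0.76) and -1.08 (-1.20 to -0.96), the lowest mean ratio of the ring. PSMB5, the chymotrypsin-like subunit and main target of bortezomib, fell from 3670 reads to 2535, 2338 and 2157, with -0.64, -0.66 and -0.77. The trypsin-like PSMB7 differed by less than 1.5-fold, at -0.27, -0.44 and -0.48, so the catalytic subunits did not differ from Bulk by one common ratio. Among the structural subunits PSMB2 had 2416, 1498, 1251 and 1307 reads, at -0.80, -0.96 and -0.88. PSMB3 had 1782, 1073, 1048 and 944 reads, at -0.84, -0.78 and -0.91. These were close to PSMB6 in ratio, while PSMB4 had -0.30, -0.37 and -0.53. PSMB1 was nearest to Bulk, with 2514, 2640, 2432 and 2175 reads and ratios of -0.04 (-0.12 to 0.04), -0.06 (-0.14 to 0.02) and -0.21 (-0.29 to -0.12).

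The inducible catalytic subunits did not move as a group. PSMB9 (ENSG00000240065, GRCh38 chromosome 6, 32844136 to 32859585, plus strand) had 234, 453, 454 and 397 reads. Its log2 ratios were 0.84 (0.61 to 1.08), 0.94 (0.71 to 1.18) and 0.76 (0.53 to 1.00). All 3 slow-cycling libraries were above Bulk, with intervals that overlap each other. PSMB8 (ENSG00000204264, chromosome 6, 32840717 to 32844703, minus strand), its neighbour in the major histocompatibility region, was slightly lower, with 1008, 948, 842 and 780 reads and ratios of -0.20 (-0.33 to -0.07), -0.27 (-0.41 to -0.14) and -0.37 (-0.51 to -0.23). PSMB10 (ENSG00000205220, chromosome 16, 67934502 to 67937087, minus strand) had 96, 64, 82 and 67 reads. Its ratios were -0.68 (-1.17 to -0.22), -0.23 (-0.68 to 0.20) and -0.51 (-0.99 to -0.05), so a difference in eGFP was not detectable at this depth.

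Set against the subunits they replace, PSMB8 and PSMB9 made up more of the catalytic messages in the slow-cycling libraries. In deposited FPKM, PSMB9 was at 6.14% of PSMB6 in Bulk and at 19.9%, 21.6% and 22.0% in the slow-cycling libraries. These percentages depend on annotated exon lengths, 3072 bases for PSMB9 and 1448 for PSMB6, while their change between libraries does not. The log2 ratio of PSMB9 relative to that of PSMB6 was 1.69 (1.44 to 1.94), 1.81 (1.55 to 2.06) and 1.84 (1.57 to 2.10), with 95% counting intervals from the normal approximation for 4 read counts. Both a higher PSMB9 and a lower PSMB6 enter this value. PSMB8 was at 16.2% of PSMB5 in Bulk and 22.0%, 21.2% and 21.3% in the others, a log2 difference of 0.45 (0.30 to 0.59), 0.39 (0.24 to 0.54) and 0.40 (0.24 to 0.55). PSMB10 stayed at 2.70% to 4.14% of PSMB7 in all 4 libraries, and every interval of that difference included 0. The constitutive subunit had the higher level per length in every pair and library.

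**Figure D3:**
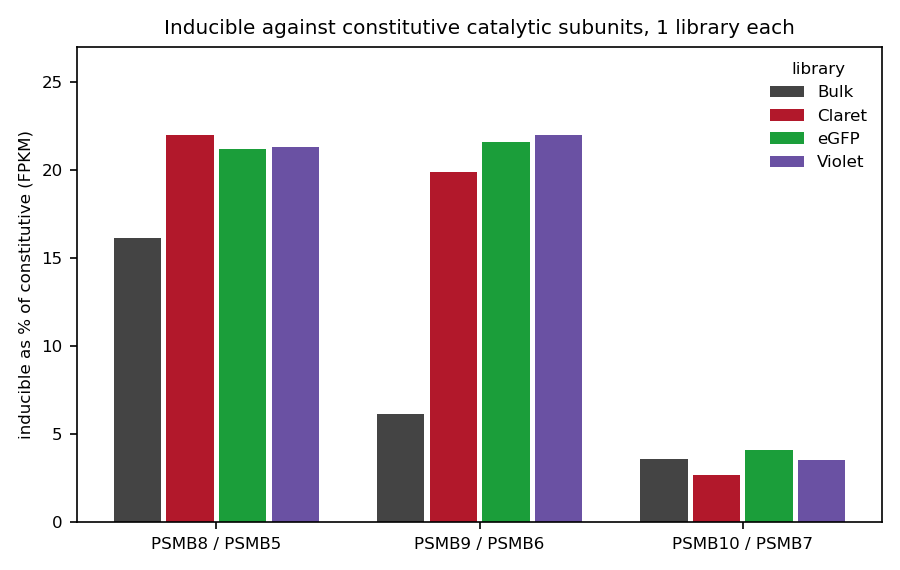
Deposited FPKM of each inducible catalytic subunit as a percentage of the constitutive subunit whose place it takes (vertical axis, from 0), with 1 bar per library and no error bar because each group is 1 library. PSMB9 rises from 6.14% of PSMB6 in Bulk to 19.9% to 22.0% in the slow-cycling libraries.

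In the 19S regulatory particle all 17 subunits were below Bulk in each library. The 6 ATPases had medians of -0.595, -0.65 and -0.76, and 4, 5 and 6 of them were called lower. PSMC3 (ENSG00000165916, chromosome 11, 47418769 to 47426473, minus strand) stood below the other ATPases. It had 4106, 1988, 1679 and 1526 reads, with ratios of -1.15 (-1.23 to -1.08), -1.30 (-1.39 to -1.22) and -1.43 (-1.51 to -1.34), which is 2.22-, 2.47- and 2.69-fold lower. In FPKM PSMC3 was the highest of the ring in Bulk, at 116, with PSMC4 next at 47.6. In the slow-cycling libraries PSMC3 was still the highest, at 51.5, 46.2 and 41.8, with PSMC4 at 31.2, 29.1 and 25.7. These ranks depend on the annotated exon length, which was 2276 bases for PSMC3, 2387 for PSMC4 and 4490 for PSMC5. By reads PSMC5 followed PSMC3 in Bulk, at 2590, and PSMC2 exceeded PSMC3 in Violet, at 1594 against 1526. The other 5 ATPases ranged from -0.96 to -0.53. PSMC5 came next, with 2590, 1805, 1465 and 1325 reads, at -0.63, -0.83 and -0.96. PSMC4 had 1767, 1262, 1109 and 984 reads, at -0.59, -0.68 and -0.84. In both genes Violet was the lowest library. PSMC2 had 2550, 1848, 1671 and 1594 reads, at -0.57, -0.62 and -0.68. PSMC1 had 1124, 800, 765 and 712 reads, at -0.60, -0.57 and -0.66. PSMC6 was least changed by its mean over the 3 libraries, though not in eGFP, with 1955, 1462, 1312 and 1284 reads, at -0.53, -0.59 and -0.60. PSMC1 shares 47.7% of its coding bases with NRDE2, on the opposite strand, and its count is uncertain.

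The non-ATPase subunits had medians of -0.61, -0.66 and -0.75, with 7, 7 and 8 of 11 called lower. PSMD1 (ENSG00000173692, chromosome 2, 231056864 to 231172827, plus strand), a scaffold of the base that docks ubiquitin receptors, was furthest below Bulk. It had 3008, 1199, 1092 and 1040 reads, with ratios of -1.43 (-1.53 to -1.34), -1.47 (-1.58 to -1.37) and -1.53 (-1.63 to -1.43). PSMD2, the other large base scaffold and the member with the most reads, fell from 9155 reads to 5329, 4904 and 4139, at -0.89, -0.91 and -1.14. PSMD11, a lid subunit known to limit assembled proteasome in stem cells, had 3683, 1958, 1860 and 1666 reads, at -1.02, -0.998 and -1.14. These 3 subunits and PSMC3 were the regulatory-particle genes past 2-fold in any comparison.

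Another 4 lid subunits passed 1.5-fold in all 3 libraries. PSMD3 had 3924, 2440, 2325 and 2104 reads, at -0.79, -0.77 and -0.90. PSMD13 had 2830, 1991, 1744 and 1511 reads, at -0.61, -0.71 and -0.90. In both genes Violet was again the lowest library. PSMD6 had 1473, 977, 952 and 874 reads, at -0.70, -0.64 and -0.75. PSMD12 had 1986, 1404, 1268 and 1203 reads, at -0.61, -0.66 and -0.72. PSMD8, with 2595, 1974, 1876 and 1616 reads, passed 1.5-fold in Violet, at -0.50, -0.48 and -0.68, and the difference between libraries behind that was not tested. The deubiquitinase of the lid, PSMD14, was at -0.36, -0.44 and -0.49, and the ubiquitin receptor PSMD4 at -0.40, -0.46 and -0.48. PSMD7, the partner of PSMD14, was least changed by its mean over the 3 libraries, though not in Violet, with 1090, 962, 875 and 767 reads, at -0.29 (-0.41 to -0.16), -0.33 (-0.46 to -0.20) and -0.50 (-0.64 to -0.37). Subunits of this particle thus differed from Bulk by unequal amounts, from -1.53 to -0.29.

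The chaperones of the 19S base were closer to Bulk, with 1 of 3 called lower in each library. PSMD5 had 1233, 813, 799 and 789 reads, at -0.71, -0.64 and -0.64. PSMD10, also called gankyrin, had 876, 827, 787 and 726 reads, at -0.19 (-0.33 to -0.05), -0.17 (-0.31 to -0.03) and -0.27 (-0.41 to -0.13). PSMD9 was at -0.41, -0.28 and -0.55 on 169 to 249 reads.

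Among the alternative caps, PSME3 was far below Bulk and PSME1 was not. PSME3 (ENSG00000131467, chromosome 17, 42824385 to 42843758, plus strand) encodes PA28 gamma, a nuclear cap that works without ubiquitin. It had 4167, 1912, 1583 and 1668 reads, with ratios of -1.23 (-1.31 to -1.15), -1.41 (-1.49 to -1.33) and -1.32 (-1.40 to -1.24). PSME1 and PSME2 encode the alpha and beta chains of the interferon-inducible PA28 cap, which form 1 mixed ring. PSME1 had 2424, 2728, 2656 and 2396 reads, at 0.06 (-0.02 to 0.14), 0.12 (0.04 to 0.20) and -0.02 (-0.10 to 0.07). PSME2 had 2121, 1657, 1548 and 1431, at -0.46 (-0.56 to -0.37), -0.47 (-0.56 to -0.37) and -0.57 (-0.66 to -0.47), so the intervals of these partner chains did not overlap in any comparison. PSME4, the large PA200 cap, was at -0.30, -0.39 and -0.25. PSMF1, the proteasome-binding protein PI31, was at 0.02 (-0.07 to 0.11), -0.10 (-0.19 to -0.01) and -0.09 (-0.18 to 0.01).

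The 20S assembly factors act as pairs, PSMG1 with PSMG2 and PSMG3 with PSMG4, and the members of a pair differed. PSMG1 (ENSG00000183527, chromosome 21, 39174769 to 39183851, minus strand) had 629, 310, 230 and 217 reads, with ratios of -1.12 (-1.33 to -0.93), -1.46 (-1.69 to -1.24) and -1.53 (-1.76 to -1.31). Its partner PSMG2 was at -0.20 (-0.33 to -0.08), -0.35 (-0.48 to -0.22) and -0.33 (-0.46 to -0.20). The intervals of PSMG1 and PSMG2 did not overlap in any library. PSMG3 had 567, 427, 371 and 323 reads, at -0.51, -0.62 and -0.81, and was called lower in eGFP and Violet. PSMG4 had 254, 265, 223 and 235 reads, and its intervals included 0 in all 3 libraries.

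PSMC3IP, which is no proteasome part, had 358, 92, 84 and 80 reads. Its ratios of -2.04 (-2.41 to -1.73), -2.08 (-2.46 to -1.76) and -2.13 (-2.53 to -1.81) were the lowest of the 47 genes kept. They lay near those of the division genes CCNB1 (-2.08, -2.46 and -2.20) and TOP2A (-2.17, -2.53 and -2.09). MKI67, the other division marker listed, lay further below Bulk, at -2.87, -3.31 and -2.89. The part of these division genes in the proteasome values was not tested.

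Between slow-cycling libraries, members differed little and no member reached 1.5-fold in either direction. With Claret set over eGFP, 2.65% of all genes were higher and 2.55% lower at that fold. With Claret set over Violet these shares were 1.81% and 3.22%, and with eGFP over Violet 2.01% and 3.78%. Fewer passed among the 10112 genes with a mean of at least 10 CPM, which include 43 of the 47 members. For these pairs 33, 16 and 13 of those genes were higher and 14, 30 and 48 lower. In the same order, the median over the 47 members was 0.05, 0.11 and 0.10. Violet had the lower value for 42 of 47 members against Claret and for 39 against eGFP, and 14 members were lower in Claret than in eGFP. Of all genes, 49.6% were lower in Claret than in Violet, 50.1% lower in eGFP than in Violet and 49.5% lower in Claret than in eGFP. The 17 regulatory-particle subunits were lower in Violet than in both other libraries, by medians of 0.12 and 0.12. For Claret against Violet, PSMC5 had the largest difference of this particle (0.34, 0.23 to 0.44), and the assembly factor PSMG1 the largest of all members (0.40, 0.15 to 0.66). For PSMD2, with the most reads, the difference was 0.26 (0.20 to 0.31) against Claret and 0.23 (0.17 to 0.29) against eGFP. The widest values, of PSMA6 at -0.57 for Claret against eGFP and 0.55 for eGFP against Violet, rest on 73 to 109 reads.

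**Figure D4:**
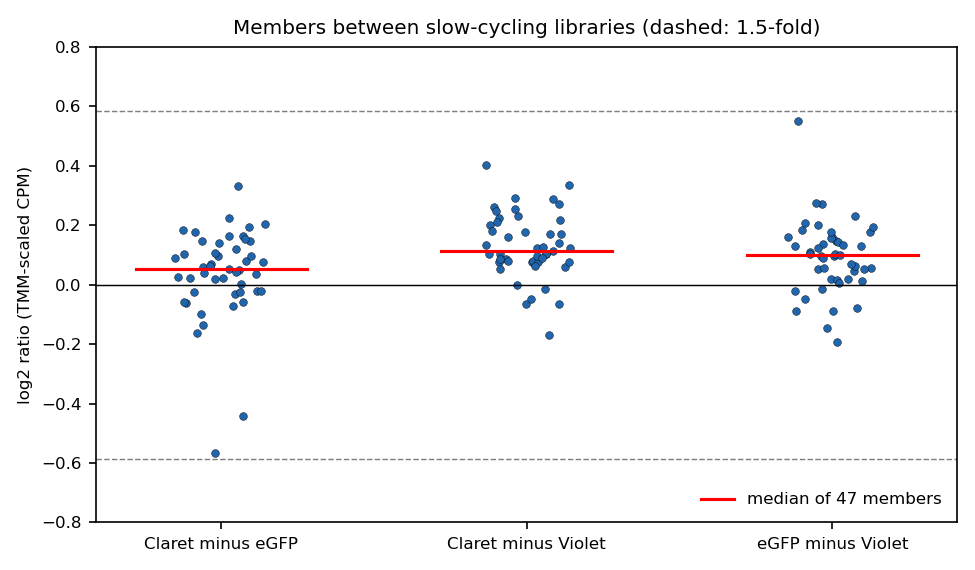
Log2 ratio of TMM-scaled CPM between slow-cycling libraries (vertical axis) for the 47 members kept, with 1 point per gene spread sideways at random, a red line at the median and dashed lines at 1.5-fold. All points lie within 1.5-fold, and the medians are 0.05, 0.11 and 0.10.

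Other genes of the pathway were taken from 4 lists with 41 genes, all of which passed the filter. They were called lower by 1.5-fold in 7, 7 and 8 cases and higher in 2, 1 and 0, with medians of -0.10, -0.13 and -0.19, so their share of lower calls was near the 17.4%, 18.6% and 17.2% of all genes. Their higher calls were fewer than the 21.4%, 22.0% and 22.4% of all genes would give. The 8 proteasome parts and partners whose symbols do not start with PSM had medians of -0.05, -0.17 and -0.19, with 1, 1 and 2 called lower. Of these, the core maturation factor POMP had 1649, 1003, 950 and 893 reads, at -0.82, -0.81 and -0.88. The ubiquitin receptor ADRM1 was at -0.45, -0.50 and -0.60, and the small lid subunit SEM1 at -0.04, -0.15 and -0.32. AKIRIN2, which brings proteasomes into the nucleus, lay the other way at 0.26 (0.13 to 0.40), 0.20 (0.07 to 0.34) and 0.09 (-0.05 to 0.23). So did PAAF1, which binds the ATPases, at 0.24 (0.01 to 0.48), 0.18 (-0.06 to 0.43) and 0.10 (-0.15 to 0.35). The intervals of AKIRIN2 in Violet and of PAAF1 in eGFP and Violet included 0. In the list of ubiquitin genes, UCHL5, a deubiquitinase held by ADRM1, was at -0.725, -0.74 and -0.82, and the proteasome-bound ligase UBE3C at -0.73, -0.70 and -0.73.

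NFE2L1 itself was slightly higher, with 7101, 9006, 8541 and 8348 reads, at 0.23 (0.19 to 0.28), 0.25 (0.21 to 0.30) and 0.23 (0.19 to 0.28). The list of genes around NFE2L1 held 7, itself included, with medians of -0.09, 0.07 and -0.01. In each slow-cycling library 3 were called lower, where 17.4%, 18.6% and 17.2% of all genes were. Called higher were 1, 0 and 0, where 21.4%, 22.0% and 22.4% of all genes were. DDI2 was at -0.09, 0.07 and -0.01 and NGLY1 at 0.13, 0.23 and 0.25. The 3 lower genes were the protein-extracting ATPase VCP and its cofactors. VCP had 10226, 6874, 6310 and 5687 reads, at -0.68, -0.71 and -0.85, with UFD1 at -1.03, -0.98 and -1.25 and NPLOC4 at -0.70, -0.61 and -0.81. SEL1L, of endoplasmic-reticulum degradation, was at 0.59, 0.50 and 0.49, and ZFAND2A, a stress-induced proteasome adaptor, at 0.70, 0.62 and 0.44, both called higher in Claret and ZFAND2A also in eGFP. The polyubiquitin gene UBB was at -0.10, -0.34 and -0.28.

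Of the immunoproteasome's partners, TAP2 alone of 8 was called lower and none was called higher, beside the shares of all genes given above. TAP2 was at -0.76 (-0.87 to -0.64), -0.77 (-0.89 to -0.65) and -0.89 (-1.01 to -0.77). TAP1, the peptide transporter gene that lies head to head with PSMB9, had 905, 1111, 1248 and 1066 reads, at 0.19, 0.45 and 0.24. B2M, the light chain of class I molecules, was at 0.40, 0.41 and 0.36. NLRC5, an activator of class I genes, was below Bulk by less than 1.5-fold (-0.43, -0.42 and -0.53), and IRF1, an interferon-pathway factor, had 228, 205, 253 and 186 reads, at -0.26, 0.14 and -0.29.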

How the data were processed

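The authors deposited read counts per gene (whole numbers, not normalized) and FPKM values, per the file headers. The authors' FPKM rest on those counts: value times length over count is constant within each library. HISAT2 2.0.5 and featureCounts 1.5.0-p3 are named in the submitters' processing notes, while use of strand and treatment of reads in several genes are not given in the sources used here. The library kit named in the labels' protocols (NEBNext Ultra) is not stated to keep strand, so reads of a gene and an antisense partner may not be separable. Gene starts and ends match GENCODE 29 (GRCh38) for all 58735 genes. Groups follow the sample titles.

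Genes with a mean of at least 1 CPM were kept (14585). TMM factors from edgeR 4.0.16 (R 4.3.3) scaled the totals, and 2 was added as prior count before taking log2 ratios. With 1 library per group no test across libraries exists. Intervals are 95% exact (Clopper-Pearson) for the share of reads between 2 libraries; they and the floor of 3 reads cover counting error only. Overlap was computed from GENCODE 29 exons. Ratios and intervals were run on simulated counts with counting error only (Poisson) and library totals without TMM. That simulation holds no variation between sorts, so it checks the calculation only. Promoter sequences are RefSeq's (GRCh38.p14). Named genes are the inducible subunits, members past 1.5-fold from Bulk and the extremes of each role; other names were chosen after their values were seen. Members and lists were chosen with earlier results of these data known. The alternatives were library totals, DESeq2 1.42.0 size factors, other filters, a prior count of 0.5, log2(FPKM + 1), a GC correction, a fold of 2 and groups from the treatment field.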

Additional observations from a re-analysis of the deposited data

How the results depend on the processing

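Across the alternatives that kept the titles as groups, each of the 6 medians kept its direction. Each also stayed between the median lower limit and the median upper limit of the members' counting intervals. The medians ranged from -0.58 to -0.50 in Claret, -0.64 to -0.55 in eGFP and -0.70 to -0.59 in Violet. With groups from the treatment field they were 0.67, 0.11 and 0.10, and 27, 0 and 0 members were higher (17.2%, 1.81% and 2.01% of all genes) and 1, 0 and 0 lower (22.4%, 3.22% and 3.78%). A fold of 2 left 6, 5 and 8 members lower and 0 higher in each. The filter at 10 CPM left 14 lower in Claret, 18 in eGFP and 22 in Violet, of 43 members (15.2%, 16.5% and 15.5% of all genes), with a scaling that differs from that of the filter at 1 CPM. A GC correction gave 2 higher members in eGFP, since PSMA6 passed 1.5-fold beside PSMB9. Restricting members to those with little coding overlap was chosen after seeing the data. The ratios of 36 named members under library totals and DESeq2 size factors stayed within their counting intervals in all 216 checks. Each of these scalings shifts all genes of a comparison by nearly the same amount. The checks are therefore not independent of each other and show only that this shift was small beside the intervals. No paired analysis was possible because each group has 1 library and the labels give no replicate numbers. Depth limits PSMA2, PSMA6 and PSMB10, with 36 to 109 reads, and variation between sorts was not measured.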
